A study of Ovis aries with 16 samples.

Results

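The enzymes that attach sugars, sulfate or glutathione to foreign and endogenous molecules, together with the flavin monooxygenases and the alcohol and aldehyde dehydrogenases, were followed in liver and skeletal muscle of sheep exposed to bisphenol A (BPA) before birth. Genes were chosen by symbol: UGT1, UGT2, UGT3 and UGT8 (UDP-glycosyltransferases), SULT (sulfotransferases), the cytosolic, mitochondrial and peroxisomal GST classes (glutathione transferases), FMO, ADH and ALDH. A gene also had to be above 0 in at least 4 of the 16 libraries. Of 28524 rows in the table, 43 matched by symbol and 42 were kept. These were 8 UGT, 4 SULT, 7 GST, 4 FMO, 2 ADH and 17 ALDH genes. SULT2B1 met the minimum with exactly 4 libraries above 0, at 0.840, 15.1, 0.711 and 2.68 normalized reads, and ALDH1B1, listed at 0 in all 16 libraries, was left out.

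Lipophilic compounds are usually cleared in steps. FMO enzymes oxygenate nitrogen and sulfur atoms, and ADH and ALDH enzymes turn alcohols into aldehydes and aldehydes into acids. UGT enzymes of the UGT1A and UGT2B groups add glucuronic acid from UDP-glucuronic acid, SULT enzymes add sulfate from the donor PAPS, and GST enzymes add glutathione, after which transporters export the conjugates into bile or blood. BPA is a phenol and is cleared as its glucuronide and sulfate, mainly in liver. Many ALDH enzymes have housekeeping tasks instead, in the breakdown of amino acids, in folate metabolism and in making retinoic acid.

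The BPA group were female Suffolk sheep whose mothers received 0.5 mg/kg BPA each day by subcutaneous injection in corn oil, from day 30 to day 90 of gestation, which gave about 2.6 ng/ml in the umbilical artery per the labels. The mothers of the control group received corn oil alone. Tissues of all offspring were taken when they were about 21 months old and had fasted for 48 hours, in the late follicular phase, 24 hours after the second injection of prostaglandin F2α, so exposure ended before birth and the fast and hormonal timing were common to both groups. Liver and vastus lateralis, a thigh muscle, came from the same 8 animals, 4 BPA animals (910, 918, 977 and 984) and 4 control animals (902, 908, 924 and 928). Within a group each library was a separate animal, and values below are given in that order of animals.

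Values are normalized read counts, that is, reads divided by a size factor of each library. They allow a gene to be compared between libraries, but without transcript lengths not with another gene. Differences are on the scale of log2(normalized count + 1), and p-values come from limma with Benjamini-Hochberg adjustment over all genes tested (mean of at least 10 normalized reads), with a threshold of 0.05. UGT1A1, UGT1A3, UGT1A4, UGT1A6 and UGT1A9 overlap one another in the RefSeq annotation and can share reads, so the split between them is uncertain. The same caution applies to GSTA1 and GSTA1-1.

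Livers differed widely in depth and in marker levels, and muscles less so. In units of 1e6 (M), BPA livers held 4.66 to 17.92 M reads and control livers 4.39 to 19.28 M, and BPA muscles held 15.15 to 26.54 M and control muscles 16.16 to 28.54 M. The summed level of 17 hepatocyte markers was 1743894, 564020, 379772 and 342062 in BPA livers and 88738, 1556646, 1694280 and 1684911 in control livers. The control liver 902 was thus the lowest and the BPA liver 910 the highest of the 8 by this sum. In 910 the fibrinogen genes FGB (222157), FGA (205294) and FGG (116520) exceeded every other liver, where they reached 102863, 95328 and 55691. ALB in 910, at 548171, lay below the controls 908, 924 and 928, at 677303 to 739640. Liver 902 also held the highest summed fibroblast and stellate cell markers, 119798, against 3302 to 7420 in BPA livers and 7876 to 11040 in the other controls. No marker of the hepatocyte list was at 0 in all livers. The labelled tissues carried their own markers: skeletal muscle fibre markers summed to 428 to 1283 in liver and 6988864 to 9816465 in muscle. In bulk tissue, fewer cells of a type and less RNA per cell cannot be told apart.

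**Figure D1:**
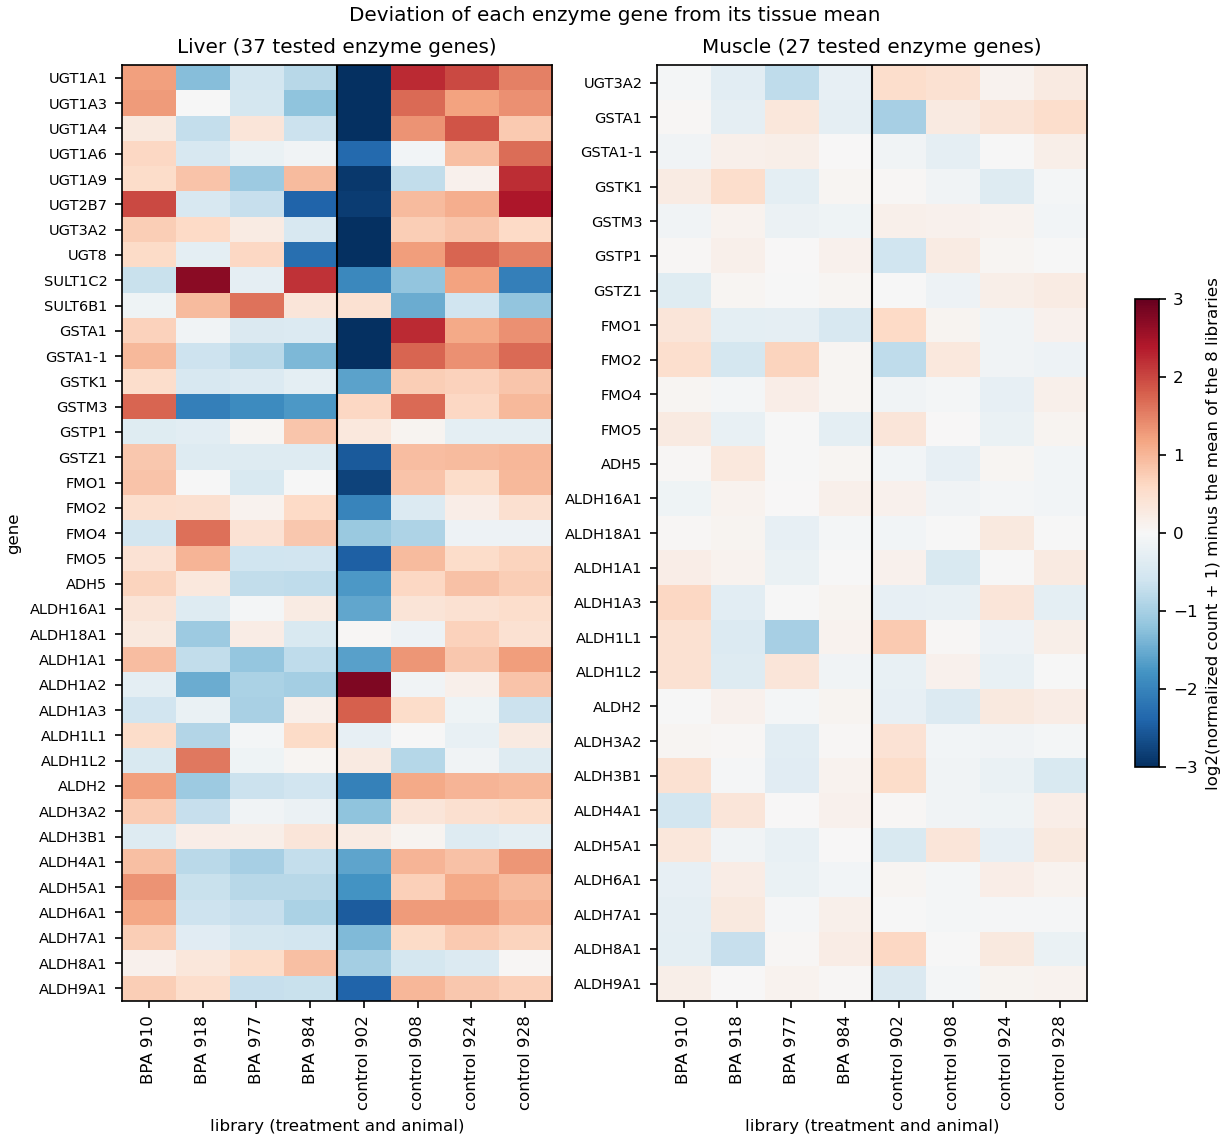
Deviation of each tested gene (rows) from its mean over the 8 libraries of its tissue, in log2(normalized count + 1), for liver (left) and muscle (right), with BPA animals left of the black line and control animals right of it, and colours capped at 3 log2 units either way. The column of control liver 902 is blue for most of the 37 genes and BPA liver 910 resembles the controls 908, 924 and 928, whereas the 27 genes in muscle stay near 0.

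Liver was set against muscle to show where each enzyme is made. All 6 UGT genes that could be tested were higher in liver, along with the SULT tested, 3 of 4 FMO genes, ADH5, 9 of 16 ALDH genes and 2 of 6 GST genes, while GSTM3 and FMO2 were lower in liver than in muscle. In all, 24 of the 34 tested genes passed (22 higher and 2 lower in liver), against 71.4% of all 15995 genes tested (36.1% higher and 35.3% lower). At an unadjusted p under 0.05 there were 27 of 34, against 73.5%. A gene that reaches the minimum mean through liver alone had to differ, so these counts describe the genes and support nothing further. The median difference was 2.44 for these genes and 0.06 for all genes. Counting all 42 genes by their ranges, 16 had every liver above every muscle, 1 (GSTM3) had every liver below, and 25 overlapped. Of the 34 tested, 15 lay above and 1 below, against 20.4% and 21.2% of all genes tested (41.6% for both directions).

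Among the glucuronidating enzymes, UGT1A1, which conjugates bilirubin, had 30.15 to 2857 normalized reads in liver (median 909) and 3.07 to 15.8 in muscle (median 9.97). Its log2 difference was 6.04 (SE 0.769, limma adjusted p = 2.93e-06). UGT1A6, known for small planar phenols, had 98.0 to 1573 in liver (median 465) and 0 to 12.3 in muscle (median 4.91), a difference of 6.53 (SE 0.552, limma adjusted p = 2.21e-08). The 2 tissues did not overlap for either gene. UGT1A3 (6.06) and UGT1A4 (5.86) differed by similar amounts on the log2 scale. UGT1A4 had 0 to 3.65 in muscle, no more than 3 reads in any library, so its difference depends on the pseudocount. UGT2B7, which in humans conjugates steroids, bile acids and morphine, had 75.4 to 2936 in liver (median 720) and 2.30 to 17.8 in muscle (median 9.88), and differed by 5.82 (SE 0.687, limma adjusted p = 1.24e-06). UGT3A2, which in humans transfers glucose or xylose in place of glucuronic acid, had 198 to 3338 in liver (median 2861) and 9.82 to 25.6 in muscle (median 17.7), a difference of 6.68 (SE 0.465, limma adjusted p = 1.98e-09).

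In muscle the mean of each of these 6 genes was between 0.745% (UGT1A4) and 0.953% (UGT2B7) of its mean in liver. The UGT1A4 mean in muscle rests on at most 3 reads in a library. The summed hepatocyte markers in muscle were 1.20% of their mean in liver, and whether liver RNA contributed to the muscle values was not tested. UGT1A9 and UGT8 fell short of the minimum mean. UGT1A9 reached at most 33.5 in liver and was at 0 in all 8 muscles, where 3 reads correspond to 2.30 to 4.21 normalized reads. UGT8, which makes the galactolipids of myelin, had 0 to 28.4 in liver (median 12.4) and 2.53 to 14.7 in muscle (median 5.54), with overlapping ranges.

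The 4 SULT genes found by symbol were barely detected in muscle. No SULT1A gene was among them, and sulfotransferases without such a symbol were not followed. SULT1C2, a cytosolic sulfotransferase of phenols, had 43.6 to 1210 normalized reads in liver (median 134) and 0 to 1.64 in muscle (median 0), where 5 of 8 libraries were at 0 and none exceeded 3 reads. Its fitted difference of 7.11 (SE 0.557, limma adjusted p = 8.65e-09) depends on the pseudocount. SULT6B1 had 4.13 to 43.7 in liver (median 14.9) and 0 to 1.22 in muscle, again with no overlap, but its mean was below the minimum for the test. SULT4A1, a brain sulfotransferase with no well-defined substrate, stayed at or below 3.36 in every library. SULT2B1, which sulfates cholesterol and other hydroxysteroids, was at 0 in all 8 muscles and exceeded 3 reads in liver 902 (15.1) and liver 928 (2.68).

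Glutathione transferases were divided between the tissues. GSTM3, of the mu class, had 16.7 to 244 in liver (median 111) and 651 to 814 in muscle (median 737), so every liver lay below every muscle. The difference was -3.32 (SE 0.424, limma adjusted p = 2.97e-06), with a muscle mean of 651% of the liver mean. GSTK1, the kappa enzyme of mitochondria and peroxisomes, was higher in liver by 2.84, and GSTZ1, which isomerizes maleylacetoacetate in tyrosine breakdown, by 2.71. The alpha genes GSTA1 (0.14, SE 0.705, limma adjusted p = 0.867) and GSTA1-1 (0.82, SE 0.560, limma adjusted p = 0.197) did not pass, and muscle means were 56.1% and 35.2% of liver means. GSTP1, of the pi class, had 84.1 to 196 in liver (median 101.4) and 56.0 to 100.3 in muscle (median 88.1), and its difference of 0.36 did not pass either (limma adjusted p = 0.107).

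Of the flavin monooxygenases, FMO1 (5.79, SE 0.432), FMO5 (5.39, SE 0.404) and FMO4 (2.92, SE 0.248) were higher in liver, with limma adjusted p between 4.62e-09 and 2.35e-08. FMO2, the lung form in many mammals, had 7.54 to 49.6 in liver (median 41.7) and 34.1 to 94.0 in muscle (median 57.4), a difference of -0.83 (SE 0.316, limma adjusted p = 0.0273) with overlapping ranges. It passed in 14 of 19 settings of the analysis.

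The aldehyde dehydrogenases covered the widest range. ALDH8A1, an enzyme of the kynurenine route of tryptophan breakdown, had 1353 to 5133 in liver (median 2901) and 10.7 to 28.0 in muscle (median 18.0), with a difference of 7.18 (SE 0.191, limma adjusted p = 1.47e-14). ALDH1L1, the cytosolic formyltetrahydrofolate dehydrogenase, had 5409 to 14802 in liver (median 9727) and 46.3 to 162 in muscle (median 97.9), a difference of 6.72 (SE 0.245). Neither gene overlapped between the tissues. ALDH1L2, the mitochondrial counterpart of ALDH1L1, did not pass (0.21, SE 0.262, limma adjusted p = 0.474). ALDH3A2, which oxidizes fatty aldehydes, ALDH9A1, an enzyme of carnitine synthesis, and ALDH16A1 were higher in liver by 2.61, 2.36 and 2.74. ALDH6A1, of valine breakdown, was higher by 1.34 (SE 0.466, limma adjusted p = 0.0174), a call lost in 5 of 20 alternative settings.

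ALDH2, the mitochondrial enzyme that oxidizes acetaldehyde, had 1116 to 10716 in liver (median 5993) and 6735 to 10919 in muscle (median 9167). Its difference of -0.97 (SE 0.424, limma adjusted p = 0.0515) did not pass, and neither did that of ALDH5A1, the succinic semialdehyde dehydrogenase (-0.87, SE 0.403, limma adjusted p = 0.0628). With the animal as a block both passed, at limma adjusted p = 0.0420 and 0.0250. ALDH7A1 of lysine breakdown (0.66, limma adjusted p = 0.0420 without the block) no longer passed with it (limma adjusted p = 0.0562). The call of ALDH7A1 was lost in 10 of 20 alternative settings, the block among them (limma adjusted p = 0.05305 to 0.2167). ALDH4A1, which completes proline breakdown, measured 0.02 (SE 0.374) with overlapping tissues. The retinaldehyde dehydrogenases ALDH1A1 (1.59) and ALDH1A2 (2.51) were higher in liver, while ALDH1A3 (-0.29, SE 0.298, limma adjusted p = 0.393) and ALDH3B1 (-0.31, SE 0.185, limma adjusted p = 0.143) did not pass. ADH5, which with glutathione oxidizes formaldehyde, was higher in liver by 0.83 (SE 0.328, limma adjusted p = 0.0333), but did not pass in 7 of 20 alternative settings, among them those without animal 908, 924, 928, 910 or 918 (limma adjusted p = 0.0769 to 0.1004). ADH7 had at most 7.54 in liver and was at 0 in all 8 muscles.

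**Figure D2:**
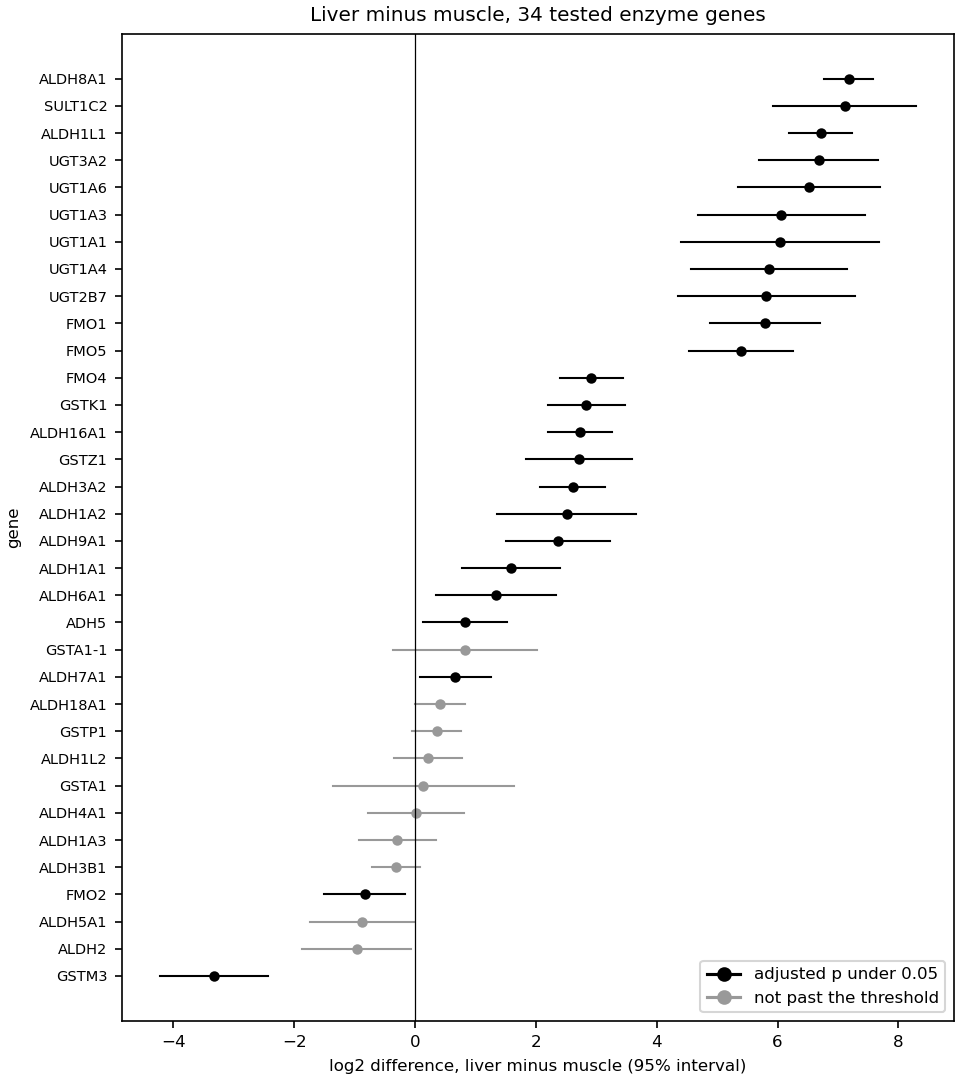
Log2 difference between liver and muscle with its 95% interval for the 34 tested genes, from limma over 16 libraries, with genes past an adjusted p of 0.05 in black and the others in grey. ALDH8A1 (7.18) and SULT1C2 (7.11) stand at the liver end, GSTM3 (-3.32) at the muscle end, and ALDH4A1 at 0.02.

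The comparison of BPA with control livers asks whether exposure before birth left a difference in these enzymes in the adult. No gene passed in liver: limma called 0 of 37 tested genes, as did edgeR, and DESeq2 called 0 of the 35 to which it gave an adjusted p (not GSTM3 or UGT1A9). Over all 15689 genes limma called 0% and DESeq2 1.24%. At an unadjusted p under 0.05, 5 of the 37 genes stood out, against 18.1% of all genes. By estimate, 14 genes were higher and 23 lower in BPA livers, with a median of -0.17, against -0.01 for all genes, of which 50.7% were lower. In 1 gene (ALDH8A1) all BPA livers lay above all control livers, and in 1 (ALDH1A2) all lay below, 2.70% each, against 3.63% and 3.98% of all genes (7.61% for both directions). Precision was low: the median SE was 0.719 on the log2 scale, and the 95% interval lay within 1 log2 unit of 0 for 2 of 37 genes and within 2 units for 17.

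None of the 8 UGT genes, which include the glucuronidating UGT1A and UGT2B enzymes, passed in either direction, with 6 estimates lower and 2 higher. UGT1A1 had 1407, 250, 412 and 336 normalized reads in BPA livers and 30.15, 2857, 2368 and 1724 in control livers. Liver 902 was the lowest of all, the other controls were above every BPA liver, and the groups overlapped. The difference was -0.72 with a 95% interval from -3.65 to 2.21 (limma adjusted p = 0.775), and it moved to -2.27 without liver 902 and to -0.10 without liver 908. UGT2B7 had 2169, 389, 337 and 102 in BPA livers and 75.4, 1050, 1174 and 2936 in control livers. BPA liver 910 lay among the controls, and liver 902 was again lowest. The difference was -0.81 (95% interval -3.39 to 1.78, limma adjusted p = 0.711).

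Of the remaining UGT genes, 3 UGT1A genes followed the same libraries. UGT1A3 had 1515, 616, 430.4 and 270.5 in BPA livers and 43.3, 2037, 1433 and 1619 in control livers (difference -0.23). UGT1A4 had 148, 72.9, 155 and 76.4 in BPA livers and 11.3, 307, 446 and 207 in control livers (-0.35). UGT1A6 had 764, 354, 428 and 461 in BPA livers and 98.0, 469, 921 and 1573 in control livers (-0.08). In each of these the controls 908, 924 and 928 were above the BPA livers 918, 977 and 984, and liver 902 was below all others. UGT3A2 had 3148, 2842, 2251 and 1348 in BPA livers and 198, 3128, 3338 and 2880 in control livers, a difference of 0.55 that rests on liver 902: without it the value was -0.45. UGT8 had 12.2, 6.25, 12.5 and 0.840 in BPA livers and 0, 19.9, 28.4 and 24.2 in control livers (-0.68). UGT1A9 had 9.94, 12.5, 2.50 and 13.4 in BPA livers and 0, 3.44, 7.11 and 33.5 in control livers (0.65), which corresponds to 0 to 50 reads in a library, with overlapping groups. Limma adjusted p for these 6 genes lay between 0.733 and 0.959. With depth class (above or below 15 M reads) as a covariate, the estimates of UGT1A1, UGT1A3, UGT1A4, UGT1A6, UGT2B7 and UGT8 all turned positive, from 0.79 to 1.54, and none passed.

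Both sulfotransferases tested in liver had higher estimates in BPA animals, and neither passed. SULT1C2 had 115, 1210, 153 and 832 normalized reads in BPA livers and 47.1, 80.5, 427 and 43.6 in control livers. BPA livers 918 and 984 were above every control, but control 924 was above the other BPA livers. The difference was 1.98 (SE 0.921, 95% interval -0.08 to 4.04, limma adjusted p = 0.284). SULT6B1 had 12.2, 27.1, 43.7 and 17.6 in BPA livers and 18.8, 4.13, 8.53 and 5.37 in control livers, so that the groups overlapped through control 902. The difference was 1.41 (SE 0.613, limma adjusted p = 0.272). SULT4A1 had 0.764, 0, 0 and 3.36 in BPA livers and 0, 0, 2.13 and 0.671 in control livers. SULT2B1 had 0, 0, 0 and 0.840 in BPA livers and 15.1, 0, 0.711 and 2.68 in control livers. Neither was tested, and the low counts allow no comparison.

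GSTM3 separated BPA liver 910 from the other BPA livers. It had 244, 16.7, 18.7 and 21.0 in BPA livers and 111, 235, 112 and 143 in control livers. The 3 BPA livers 918, 977 and 984 were below every control, and 910 was the highest of all 8. The difference was -1.96 (SE 0.783, limma adjusted p = 0.261), and -0.9957 with edgeR. Without liver 910 it was -2.87 (SE 0.354) and passed (limma adjusted p = 0.00531), in a comparison where 16.5% of all genes passed. The 5 other GST genes had estimates from -0.90 (GSTA1-1) to 0.10 (GSTP1), and 5 of the 6 GST estimates were lower in BPA livers.

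All 4 FMO estimates were higher in BPA livers, between 0.14 (FMO5) and 1.17 (FMO4), and none passed. For FMO1 and FMO5 the means ran the other way, at 5622 and 4193 in BPA livers and 6692 and 4588 in control livers. Control 902 was the lowest liver for both genes, at 721.7 and 653.9. Without livers 902 and 910, FMO1 was -0.96 and passed (limma adjusted p = 0.00997), in a comparison where 43.1% of all genes passed. FMO4 had 409, 1863, 807 and 1045 in BPA livers and 277, 314, 532 and 536 in control livers. BPA livers 918, 977 and 984 were above every control, and liver 910 lay among the controls. The difference was 1.17 (SE 0.462, limma adjusted p = 0.258). Without liver 910 it was 1.55 (SE 0.385) and passed (limma adjusted p = 0.0327).

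ALDH8A1 was the enzyme whose BPA livers all exceeded the controls. It had 2997, 3446, 4032 and 5133 normalized reads in BPA livers and 1353, 1896, 2063 and 2804 in control livers. The groups did not overlap, although the lowest BPA liver (2997) was near the highest control (2804). The difference was 0.96 (SE 0.342, 95% interval 0.20 to 1.73, limma adjusted p = 0.256). Over 19 settings its estimate stayed between 0.78 and 1.13 and passed in 1, in which livers 902 and 910 were both left out. ALDH8A1 was unlike most of the other enzymes in that livers 918, 977 and 984, which had low hepatocyte markers, held its highest values.

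ALDH1A2, which makes retinoic acid from retinaldehyde and in liver is known from stellate and mesothelial cells, ran the other way. It had 29.8, 12.5, 18.7 and 17.6 in BPA livers and 264, 34.4, 41.2 and 67.8 in control livers. All BPA livers were below all controls, and control 902, which had the highest fibroblast and stellate cell markers, was the highest. The difference was -1.87 (SE 0.626, limma adjusted p = 0.256). The summed fibroblast and stellate cell markers had the same arrangement, 3302 to 7420 in BPA livers and 7876 to 119798 in control livers, with 3 of 12 markers individually lower in every BPA liver, and so had the macrophage and Kupffer cell markers, 1045 to 5771 in BPA livers and 6233 to 9574 in control livers, with 4 of 10 individually lower. The part of either list in the ALDH1A2 difference was not tested. ALDH1A3, its relative, had 44.3, 58.3, 33.7 and 74.8 in BPA livers and 234, 98.4, 61.1 and 42.3 in control livers, overlapping, with a difference of -0.79 (SE 0.523, limma adjusted p = 0.408).

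The other ALDH genes and ADH5 overlapped between the groups. Of the 16 ALDH genes tested in liver, 5 had higher and 11 lower estimates in BPA animals, with a median of -0.42. ALDH2 had 10716, 2136, 2909 and 3081 in BPA livers and 1116, 9996, 9194 and 8905 in control livers, a pattern in which BPA liver 910 lay above and control 902 below all others. Its difference was -0.54 (95% interval -2.29 to 1.21). ADH5 had 1081, 839, 409 and 398 in BPA livers and 205, 1037, 1253 and 1127 in control livers (-0.26).

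**Figure D3:**
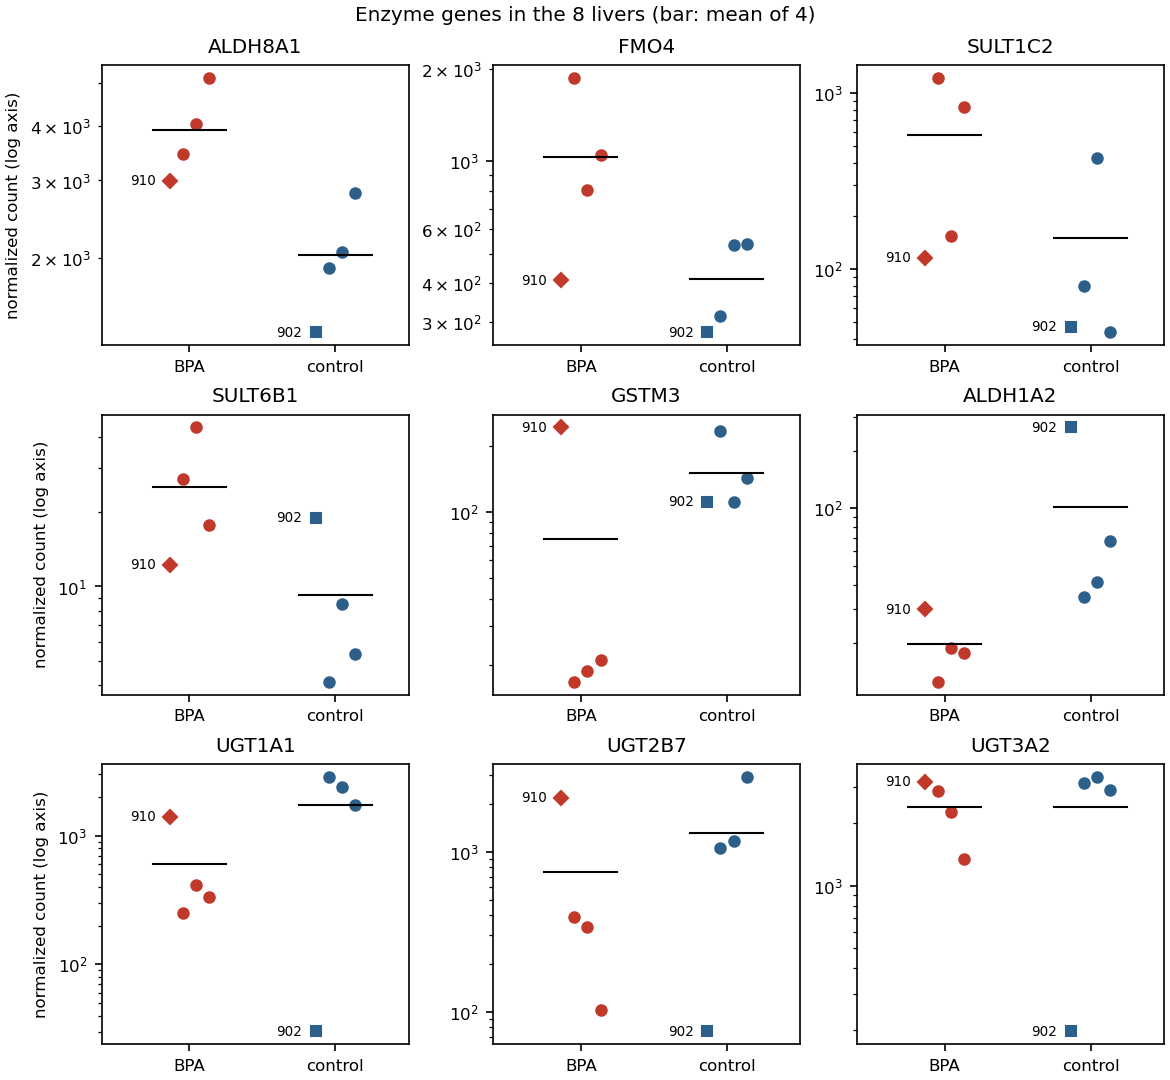
Normalized read counts in the 8 livers (log axis) for 9 genes, BPA animals left and control animals right, with the group mean as a bar, BPA liver 910 as a diamond and control liver 902 as a square. ALDH8A1 is the gene with all BPA livers above all controls and ALDH1A2 the one with all below, while in UGT1A1, UGT2B7 and UGT3A2 liver 902 lies under every other library.

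The position of the libraries was shared across the enzymes. Liver 902 was the lowest of the 8 for 27 of 37 genes (73.0%, against 23.4% of all genes) and the highest for 2, ALDH1A2 and ALDH1A3. BPA livers 918, 977 and 984 all lay below the controls 908, 924 and 928 for 24 genes (64.9%, against 29.7% of all genes). They all lay above them for 4, SULT6B1, ALDH8A1, FMO4 and ALDH3B1 (10.8%, against 27.5% of all genes). BPA liver 910 was within the range of those 3 controls for 18. These libraries were singled out after their values were seen.

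Hepatocyte markers moved with the enzymes. The median deviation of the 37 genes from the mean of the 8 livers was 0.63, -0.34, -0.43 and -0.45 log2 units in BPA livers and -1.80, 0.70, 0.78 and 0.78 in control livers. For the hepatocyte markers the medians were 1.36, -0.31, -0.73 and -0.86 in BPA livers and -2.84, 1.19, 1.34 and 1.21 in control livers. The 8 livers took the same order on both measures but for the place of 910, with 902 far below the rest, 918, 977 and 984 in the middle and the other 4 together at the top. Those 4 held 17.92 to 19.28 M reads, and livers 902, 918, 977 and 984 held 4.39 to 10.64 M. The split was therefore also one of depth class, and the 2 could not be told apart. The part of hepatocyte content in the enzyme values was not tested. With both 902 and 910 left out, 24 of 37 genes passed in liver (21 lower and 3 higher in BPA), against 43.1% of all genes. Among them were UGT1A1 (-2.80), GSTA1-1 (-2.53) and UGT2B7 (-2.68), and on the higher side SULT6B1 (2.08), FMO4 (1.38) and ALDH8A1 (0.90). Since these 2 libraries were left out because their values stood apart, that count is no independent evidence. Without them every BPA liver held under 15 M reads and every control liver more, so depth and treatment could not be told apart. With 902 alone left out, 0 passed.

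**Figure D4:**
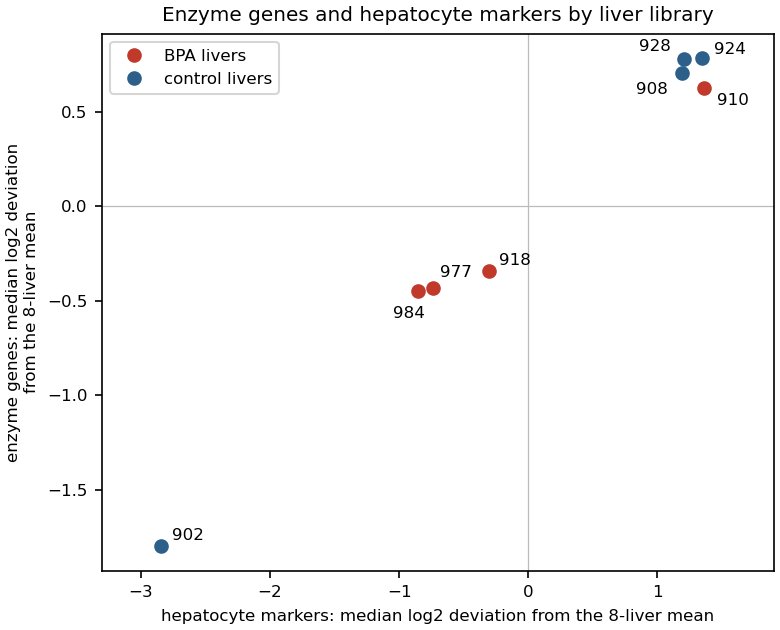
Median log2 deviation of the 37 tested enzyme genes from the 8-liver mean (vertical) against the same median for hepatocyte markers (horizontal), 1 point for each liver, with BPA and control livers in different colours and animals numbered. Control liver 902 lies at -2.84 and -1.80, BPA liver 910 lies with controls 908, 924 and 928, and BPA livers 918, 977 and 984 lie between.

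In muscle the enzymes were measured much more tightly, and again none passed. Limma called 0 of 27 tested genes, as did edgeR and DESeq2. Of all 14706 genes limma called 0.129% (0.0136% higher and 0.116% lower in BPA) and DESeq2 0.891%. At an unadjusted p under 0.05 there was 1 gene by limma, UGT3A2, against 7.77% of all genes. The median SE was 0.163 on the log2 scale, and the 95% interval lay within 0.5 log2 units of 0 for 15 genes and within 1 unit for 24 of 27. Estimates were higher for 15 and lower for 12, with a median of 0.04, against -0.0022 for all genes, of which 50.5% were lower.

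UGT3A2 had 16.7, 13.8, 9.82 and 14.6 normalized reads in BPA muscles and 25.6, 24.4, 18.8 and 21.3 in control muscles. All BPA muscles lay below all controls, 1 gene of 27 (3.70%), and no gene lay above, against 2.48% and 2.05% of all genes (4.53% for both directions). The difference was -0.69 (SE 0.259, 95% interval -1.26 to -0.12, limma adjusted p = 0.523). The summed hepatocyte markers in the same muscles were 12381, 6314, 8694 and 8692 in BPA animals and 19034, 14217, 13077 and 13973 in control animals. They had the same arrangement, with 7 of 17 markers individually lower in every BPA muscle, and their part in the UGT3A2 difference was not tested.

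The next smallest p-values in muscle belonged to ADH5 and GSTM3. ADH5 had 389, 473, 379 and 396 in BPA muscles and 359, 320.2, 398 and 359 in control muscles, which overlapped (0.19, SE 0.104, limma adjusted p = 0.724). GSTM3 had 676, 786, 651 and 662 in BPA muscles and 814, 799.8, 782 and 692 in control muscles, which overlapped through BPA muscle 918 (-0.16, SE 0.0919, limma adjusted p = 0.739). FMO1 (-0.34), GSTK1 (0.26) and FMO2 (0.35) had limma adjusted p between 0.751 and 0.805. The UGT1A genes, UGT2B7 and the sulfotransferases were below the minimum mean in muscle. Their levels there were at most 15.8 for UGT1A1, 17.8 for UGT2B7 and 1.64 for SULT1C2. Fitted without a minimum mean, UGT1A1 (-0.37, 95% interval -1.47 to 0.73) and UGT2B7 (-0.33, 95% interval -1.41 to 0.75) did not pass, with limma adjusted p = 0.883 for both, and neither did any other UGT or SULT gene.

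**Figure D5:**
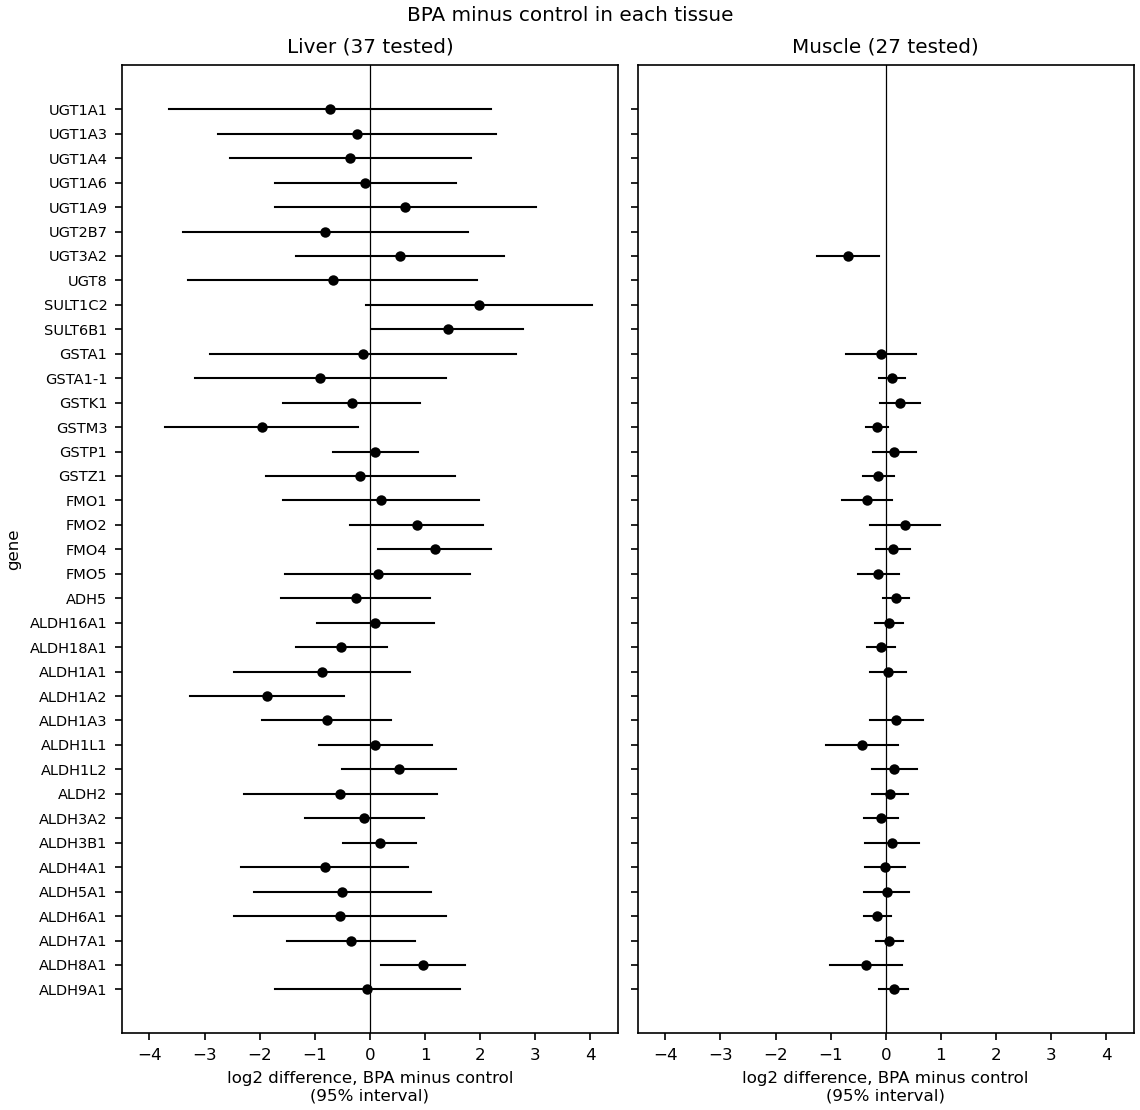
Log2 difference between BPA and control animals with its 95% interval from limma, in liver (left, 37 genes) and muscle (right, 27 genes, with untested genes blank). Intervals in muscle are narrow and close to 0, with UGT3A2 (-0.69) apart, while those in liver are wide, with ALDH1A2 (-1.87), GSTM3 (-1.96), FMO4 (1.17), SULT6B1 (1.41) and ALDH8A1 (0.96) the 5 that exclude 0 before adjustment.

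Whether the BPA difference itself differed between liver and muscle was tested on the 27 genes measured in both. Limma and edgeR called 0 of them and 0% of all 13677 genes. DESeq2 also called 0 of them (it gave no adjusted p for GSTM3), and 1.08% of all genes. By limma 2 of 27 were at an unadjusted p under 0.05, against 19.5% of all genes. The difference was above 0 for 10 genes and below 0 for 17, against 52.3% of all genes below 0. ALDH8A1 had a BPA difference of 0.96 in liver and -0.36 in muscle, where it had 14.5, 10.7, 18.2 and 21.1 in BPA animals and 28.0, 17.7, 22.3 and 15.5 in control animals. The difference between these was 1.32 (SE 0.382, 95% interval 0.51 to 2.13, limma adjusted p = 0.195). For GSTM3 it was -1.81 (SE 0.849, limma adjusted p = 0.256) and for FMO4 1.04 (SE 0.496, limma adjusted p = 0.260). Without animal 910 these 3 genes passed, in a fit where 22.1% of all genes did, with values of 1.40, -2.72 and 1.42 and limma adjusted p of 0.0283, 0.000258 and 0.0287. UGT3A2, with opposite estimates in liver (0.55) and muscle (-0.69), gave 1.23 (SE 0.933, limma adjusted p = 0.446), and the retinaldehyde dehydrogenases ALDH1A3 and ALDH1A1 gave -0.98 and -0.91 (limma adjusted p = 0.350 and 0.495). With the animal as a block, 0 passed.

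The genes around these enzymes, in 9 lists of cofactor metabolism, transport, deconjugation, other conjugation, related oxidoreductases and regulating receptors, held 135 genes, of which 109 were in the table. In liver 102 were tested and 0 passed with limma, with 61 estimates lower and 41 higher in BPA animals. In muscle 98 were tested and 0 passed, with 57 lower and 41 higher. Between tissues 64 were higher and 20 lower in liver of 103 tested, where 36.1% and 35.3% of all genes were. UGDH, which makes UDP-glucuronic acid, was higher in liver by 3.24, and PAPSS2, which makes the sulfate donor, by 5.71. The receptors NR1I2 and NR1I3, which induce conjugating enzymes, were higher in liver by 7.62 and 5.64.

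All 5 genes that make, transport or convert UDP-glucuronic acid (UGP2, UGDH, SLC35B1, SLC35D1 and UXS1) had lower estimates in BPA animals in both tissues. None passed, and medians were -0.66 in liver and -0.16 in muscle, where 50.7% and 50.5% of all genes had lower estimates. For UXS1, control liver 902 was at 876.2, the other controls at 121.5 to 128.7, and BPA livers at 87.1, 162.4, 173.4 and 148.7. In the lists of glutathione synthesis and of microsomal glutathione transferases, 8 of 12 and 5 of 6 estimates in liver were lower. For PAPS supply, deconjugating enzymes and other oxidoreductases, 5 of 7, 9 of 13 and 11 of 16 were lower. For other conjugation, transporters and receptors, 8 of 13, 7 of 13 and 10 of 17 were higher. RDH11, a retinal reductase, had the smallest p of the 102 genes tested in liver. It had 62.7, 41.6, 39.9 and 48.7 in BPA livers and 121, 104, 115 and 149 in control livers, without overlap, and differed by -1.33 (SE 0.289, limma adjusted p = 0.256). In muscle the smallest p belonged to LTC4S, which attaches glutathione to a leukotriene (0.85, SE 0.212, limma adjusted p = 0.249). RDH11 and LTC4S are given because they had the smallest p, and neither passed.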

How the data were processed

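RNA of liver and vastus lateralis was depleted of ribosomal RNA and made into libraries with a low-input kit, per the labels' protocols. The submitters' processing notes name Trimmomatic, FastQC and DESeq2 1.24.0. For the aligner, counter, annotation, build and strand of counting, the tools and settings were not given in the sources used here.

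The values deposited by the authors are a normalized signal for each gene, in which the count of reads was divided by a size factor of its library, over all 16 libraries at once. Each column was made of whole multiples of 1 step, so reads were recovered by division, and at least 99.995% of the values in each library came out whole within 0.1 read. No column was left unused (0).

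Limma 3.58.1 (R 4.3.3) was fitted with an intensity trend to log2(value + 1) of the deposited values, for rows with a mean of at least 10, in each tissue alone (8 libraries) and in a 4-group fit over 16 libraries for liver against muscle and for the difference between BPA effects, which needed that mean in each tissue. Such log2 differences understate changes of low genes. As alternatives, the recovered reads went through DESeq2 1.42.0 and the quasi-likelihood test of edgeR 4.0.16. Other alternatives were pseudocounts of 0.5 and 5, no minimum or a mean of 50, TMM and upper-quartile scaling, robust fits, depth class as a covariate, the animal as a block, and leaving out libraries or animals. The fits were tested on simulated data.

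The table's symbols were matched to RefSeq (assembly ARS-UI_Ramb_v3.0), which served for names and neighbours only: 36 of the 42 genes were found. The genes and the cell-type and pathway lists were chosen with earlier results of these data known. Named with values were all UGT and SULT genes, genes past the threshold or with non-overlapping groups, the 3 smallest p in each direction within a tissue and for the difference between tissues, and the 6 largest differences each way between tissues. Genes named beyond these were chosen after their values were seen.

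By the labels, a liver and a muscle with the same sheep number came from 1 animal, which pairs them. Deviations of an animal's liver and muscle from their group means correlated by -0.10 to 0.12 across 13677 genes. No libraries agreed within sampling noise. A limit of 3 reads, or 2.01 to 6.25 normalized reads in liver and 2.30 to 4.21 in muscle, was taken as the level below which a gene at 0 could lie, for counting error only.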

Additional observations from a re-analysis of the deposited data

Results flagged for a closer look

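A library lay far from the other 3 of its group on the log2 scale in 28 of 128 groups of 4 looked at. Dixon's test was used at its 95% critical value, where chance gives about 1 in 20. The groups share the same libraries across genes, so they are not independent trials. The test was run on the enzyme genes only. Without the share over all genes, the count cannot show whether such departures are particular to these enzymes. Of the 28, 19 were control liver 902, in each case as the lowest of the controls. Its values there were 30.15 for UGT1A1, 43.34 for UGT1A3, 197.9 for UGT3A2 and 0 for UGT8. Among glutathione transferases they were 13.19 for GSTA1, 260.0 for GSTA1-1, 538.9 for GSTK1 and 457.9 for GSTZ1, and among oxidizing enzymes 721.7 for FMO1, 653.9 for FMO5 and 205.4 for ADH5. The ALDH genes were ALDH2 (1116), ALDH3A2 (945.9), ALDH4A1 (586), ALDH5A1 (207.3), ALDH6A1 (412.7), ALDH7A1 (495.6), ALDH9A1 (448.5) and ALDH16A1 (326). The summed hepatocyte markers of this liver were the lowest of the 8, and their part in these values was not tested.

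BPA liver 910 was the highest of the BPA livers in 6 groups, with GSTM3 at 243.8, GSTZ1 at 4632, ALDH4A1 at 3297, ALDH5A1 at 1844, ALDH6A1 at 5227 and ALDH7A1 at 2098 normalized reads. Its summed hepatocyte markers were the highest of the 8 livers. Among these markers FGB, FGA and FGG were above controls 908, 924 and 928, and ALB was below them. In muscle 3 values stood apart. ALDH3A2 was lowest in BPA animal 977 (287.7) among BPA muscles and highest in control animal 902 (485.8) among control muscles, and ALDH1A3 was highest in control animal 924 (105.6).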

How the results depend on the processing

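In muscle 0 enzyme genes passed under all 17 alternative settings run, where 0.0747% to 0.891% of all genes did. Between tissues 21 to 27 passed (24 as reported), 19 of them under every setting that gave a value. Of all genes 52.5% to 73.5% passed between tissues. In liver 0 passed as reported, 2 without liver 910 (range 0 to 2 with single livers left out) and 24 without both 902 and 910. The fit without 910 called 16.5% of all genes, and that without both called 43.1%. For the difference between BPA effects 0 passed as reported and 3 without animal 910 (range 0 to 3 with single animals left out). The fit without animal 910 called 22.1% of all genes. With the animal as a block, 0 passed for that difference and 25 for liver against muscle, where ALDH7A1 was lost and ALDH2 and ALDH5A1 were gained.

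Directions of UGT genes in liver were not stable. With depth class as a covariate the values were 1.35 for UGT1A1, 1.54 for UGT1A3, 0.96 for UGT1A4, 0.93 for UGT1A6, 1.07 for UGT2B7 and 0.79 for UGT8. With single livers left out UGT1A1 ranged over -2.27 to -0.10, UGT1A3 ranged over -1.55 to 0.30, UGT1A4 over -1.51 to 0.22, UGT1A6 over -0.87 to 0.46, UGT1A9 over -0.21 to 1.12 and UGT3A2 over -0.45 to 0.91. With edgeR UGT1A9 was -0.27 and UGT3A2 -0.0081, and without both 902 and 910 they were -0.29 and -0.60. Between tissues ALDH1A3 was 0.20 in control animals alone. The cause was not tested. Depth limits SULT2B1, SULT4A1, ADH7, ALDH3A1 and GSTO2, which had at most 15 reads in any liver.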

Other observations

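Of the enzyme genes too low for any BPA comparison, ADH7, which oxidizes retinol, had 3.06, 2.08, 0 and 0 normalized reads in BPA livers and 7.54, 2.06, 0.711 and 1.34 in control livers. ALDH3A1, the corneal aldehyde dehydrogenase, had 2.29, 0, 0 and 0.840 in BPA livers and 0, 1.38, 1.42 and 10.1 in control livers. GSTO2, of the omega class, had 5.35, 10.4, 8.73 and 3.36 in BPA livers and 1.88, 6.19, 9.24 and 8.72 in control livers, and 0 to 3.52 in muscle. These values corresponded to at most 15 reads in any liver, and the groups overlapped for each gene.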
